A study of Rattus norvegicus with 6 samples.

Results

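The intervals described here are the short m6A intervals whose widths break the 25-bp grid of the list they belong to. They were chosen by width and by gene assignment: each was listed with exactly 1 gene, was at most 1000 bp wide, and had a width that was not a whole multiple of 25 bp. The rule found 1739 of the 29268 distinct intervals of the series (5.94%), in 1632 of its 13146 genes. They made up 6.5% of the 26755 intervals listed with a single gene, and 35.6% of the 4883 such intervals with a broken-grid width. All lengths are genomic, from the start to the end of an interval.

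The study profiled m6A in penile tissue of fetal Sprague-Dawley rats by methylated RNA immunoprecipitation sequencing (MeRIP-seq), in which an antibody against m6A pulls down RNA fragments. There were 3 case samples and 3 control samples. Per the design text, the dams were gavaged with di-(2-ethylhexyl) phthalate (DEHP), a plasticizer, or with corn oil as the vehicle, from gestational day 12 to 19. Fetuses were taken by cesarean section on GD19.5, and the tissue came from males with hypospadias, a misplaced opening of the urethra, and from normal males. The titles say only case and control, and the labels give neither a genotype nor whether fetuses were pooled. The list names no sample and holds 0 columns of values per sample. Whether it was made from all 6 samples together is not stated. No interval can therefore be given a level in case or control samples, and no comparison of case with control was made. Depth is unknown, and the tissue could not be checked against marker genes because the gene IDs carry no symbols here.

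N6-methyladenosine (m6A) is written on messenger RNA by the METTL3 and METTL14 methyltransferase complex, removed by the demethylases FTO and ALKBH5, and read by proteins of the YTH family. In mammals it is typically concentrated near stop codons and in long internal exons, and it is depleted around splice junctions, where exon junction complexes are deposited. Programs that find m6A peaks often lay short windows end to end along the spliced transcript. On the genome, such a run keeps its regular step within an exon, and its phase shifts where an intron lies in between. An interval on the transcript that crosses an intron is then as wide on the genome as its exonic pieces and the intron together. A transcript whose length is not a whole number of windows can also end in a shorter window. The labels do not name the program that made this list. Neither introns nor transcript ends were assigned, since no genome or annotation matching the positions was used, so which of these a given interval carries was not tested. For the same reason no sequence is shown.

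Widths of the short broken-grid intervals ran from 55 to 999 bp, with a median of 419 bp and quartiles of 242 and 658 bp. The width chose these intervals, so these values are a description. The narrowest 2 lay on chromosome 15 from 78288535 to 78288589 (55 bp) and on chromosome 1 from 244889954 to 244890013 (60 bp). Both were assigned to minus-strand genes and were the 5'-most interval of their gene. The widest 2 were 999 bp, on chromosome 1 from 134176777 to 134177775 and from 182849336 to 182850334. Just past the limit, the next 2 broken-grid intervals were 1001 bp wide, on chromosome 12 from 32304337 to 32305337 and on chromosome X from 59589351 to 59590351. There was no step in number at the limit, with 61 intervals in the last 50 bp below it and 56 single-gene broken-grid intervals in the first 50 bp above it.

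Broken-grid widths were rare among narrow intervals and more frequent among wider ones. Of the single-gene intervals up to 100 bp, 62 of 4583 were broken-grid (1.35%). This share was 3.96% over 100 and up to 200 bp, 6.48% up to 300 bp, 8.0% up to 400 bp and 11.4% up to 500 bp. It reached 19% over 500 and up to 750 bp and 32.8% over 750 and up to 1000 bp. Over the whole range up to 1000 bp it was 7.54%.

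The short broken-grid intervals gathered at 1 end of their genes, and on both strands that was the end with the higher genomic coordinate. In the following, the high-coordinate end of a gene is the listed interval with the highest position among that gene's intervals, and the low-coordinate end the one with the lowest. The high-coordinate end is the 3'-most interval of a plus-strand gene and the 5'-most interval of a minus-strand gene. Place within the gene was not used by the rule. Among the 786 short broken-grid intervals in genes with 3 or more intervals, 381 (48.5%, 95% Wilson interval 45 to 52) lay at the high-coordinate end, 162 (20.6%) at the low-coordinate end and 243 (30.9%) in between. Whole-step intervals of the same width range, those with widths in multiples of 25 bp, did not share this pattern. Of 13596 of them in genes with 3 or more intervals, 21% (20.4 to 21.7) lay at the high-coordinate end and 23.1% at the low-coordinate end. Broken-grid intervals over 1000 and up to 10000 bp stood at 24.2% (22.0 to 26.7) and 21.9% over both strands, but these near-equal shares join opposite ones. Their high-coordinate and low-coordinate ends held 15.5% and 31.2% on the plus strand, and 33.0% and 12.7% on the minus strand, so that on both strands more lay at the 5' end. For broken-grid intervals over 10000 bp these shares were 7.0% and 39.7% on the plus strand, and 45.2% (38.8 to 51.8) and 5.5% on the minus strand. An excess at the high-coordinate end of minus-strand genes was thus also present in the wider broken-grid intervals. For those over 10000 bp, its Wilson interval overlapped that of the short ones on this strand, 53.5% (48.2 to 58.7). The Wilson intervals cover counting error only, intervals of a list are not replicates, and no test was made because there are no values per sample.

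**Figure D1:**
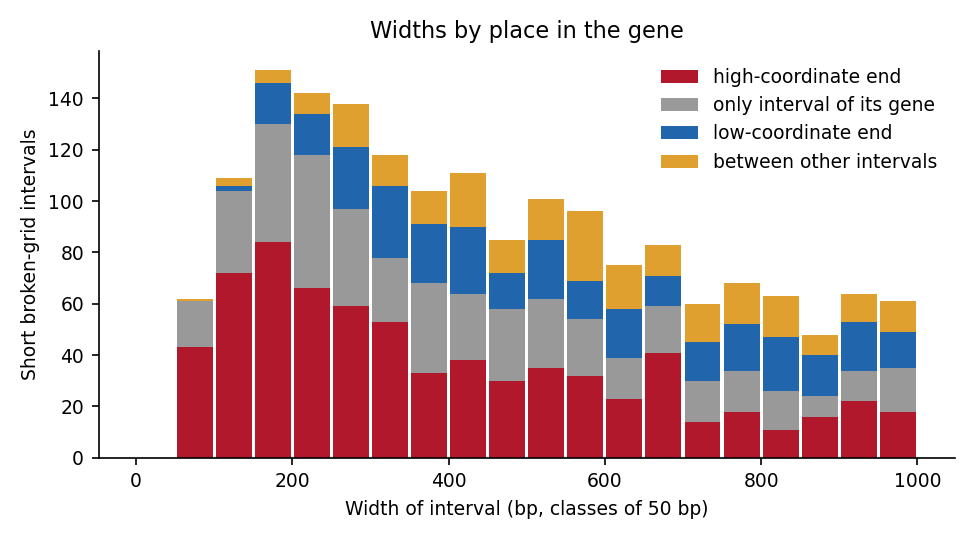
Number of short broken-grid intervals (vertical axis) by width in classes of 50 bp (horizontal axis), stacked by place among the intervals of the same gene; red is the high-coordinate end (708 intervals in genes with 2 or more intervals), grey the only interval of its gene (467), blue the low-coordinate end (321) and yellow a place between other intervals (243). Red and grey fill nearly all of the narrowest classes, and blue and yellow come in with width.

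The narrower the interval, the more often it lay at the high-coordinate end. In genes with 3 or more intervals, 25 of the 26 broken-grid intervals up to 100 bp lay there (96.2%, 95% Wilson interval 81.1 to 99.3). None of the 26 lay at the low-coordinate end, a count of 0 that allows a share of up to 11.5%. The share at the high-coordinate end was 87.0% of 108 intervals over 100 and up to 200 bp, 57.8% of 102 up to 300 bp, 45.3% of 95 up to 400 bp and 44.0% of 91 up to 500 bp. It was 35.4% of 209 over 500 and up to 750 bp. Over 750 and up to 1000 bp, both ends held 29.7% of 155 intervals (23.0 to 37.3 at each end). These equal shares join unlike ones by transcript end: 44.5% of the 155 were the 5'-most and 14.8% the 3'-most. Over 500 and up to 750 bp the 5'-most and 3'-most shares were 35.9% and 22.5%. Up to 100 bp they were 46.2% and 50%, and over 100 and up to 200 bp 42.6% and 50%. Whole-step intervals of the same width classes had 17.1% to 23.0% at the high-coordinate end and 20.2% to 24.8% at the low-coordinate end. The whole-step share at the high-coordinate end was 20.2% up to 100 bp and highest, at 23.0%, over 100 and up to 200 bp. It was lowest, at 17.1%, over 750 and up to 1000 bp.

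**Figure D2:**
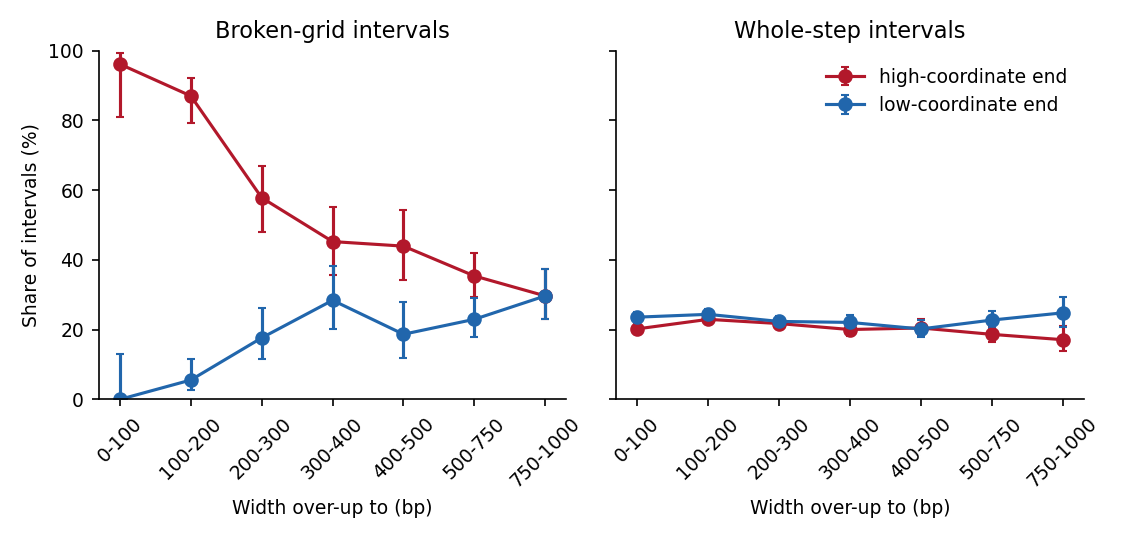
Share of intervals (%, vertical axis) that lay at the high-coordinate end (red) or the low-coordinate end (blue) of their gene, by width class in bp (horizontal axis), in genes with 3 or more intervals; left, broken-grid intervals, right, whole-step intervals, with 95% Wilson bars. In the broken-grid panel red falls to 29.7% in the widest class, against 96.2% in the narrowest; in the whole-step panel both colours stay between 17.1% and 24.8%.

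Read by strand, the same intervals lay at opposite ends of the transcript. In plus-strand genes with 3 or more intervals, 197 of 442 (44.6%) were the 3'-most and 126 (28.5%) the 5'-most. In minus-strand genes, 36 of 344 (10.5%) were the 3'-most and 184 (53.5%) the 5'-most. Pooled over strands, 39.4% were the 5'-most and 29.6% the 3'-most. The pooled shares average over 2 strands that order the ends oppositely, and describe neither strand alone. Compared at the same coordinate end, the share of each strand's short broken-grid intervals was higher where that end was the 5'-most. At the high-coordinate end it was 53.5% against 44.6%, with Wilson intervals that just overlapped (48.2 to 58.7 and 40.0 to 49.2). At the low-coordinate end it was 28.5% against 10.5% (24.5 to 32.9 and 7.66 to 14.1). Genes with exactly 2 intervals showed the high-coordinate end too: it held 172 of 278 (61.9%) on the plus strand and 155 of 208 (74.5%) on the minus strand. Whole-step intervals of such genes lay there in 51.5% on the plus strand and 44.7% on the minus strand. For broken-grid intervals over 1000 and up to 10000 bp the shares were 30.5% on the plus strand and 69.1% on the minus strand. Over 10000 bp they were 21% and 82.0%. The excess at this end was thus particular to the short broken-grid intervals on the plus strand only.

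A second difference ran along the transcript and appeared at the low-coordinate end. Here the base was every single-gene interval up to 1000 bp in a gene with 3 or more. The broken-grid share was 7.62% (95% Wilson interval 6.44 to 9.0) of 1653 low-coordinate ends on the plus strand, where that end is the 5'-most. It was 2.18% (1.58 to 3.01) of 1648 low-coordinate ends on the minus strand, where it is the 3'-most. Intervals lying between others were broken-grid in 3.0% of 3968 on the plus strand and 3.20% of 3871 on the minus strand. At the high-coordinate end the shares were 11.4% (10.01 to 13.02) of 1724 on the plus strand and 12.1% (10.6 to 13.9) of 1518 on the minus strand. The share at the high-coordinate end was thus alike whether that end was the 3'-most or the 5'-most interval, within counting error. Pooled over all sizes, broken-grid widths were known from this list to be less frequent at the 3' end when these shares were taken. The low-coordinate values are thus not independent of that. For the short ones on the plus strand the order was the reverse, at 11.4% of the 3'-most and 7.62% of the 5'-most intervals.

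**Figure D3:**
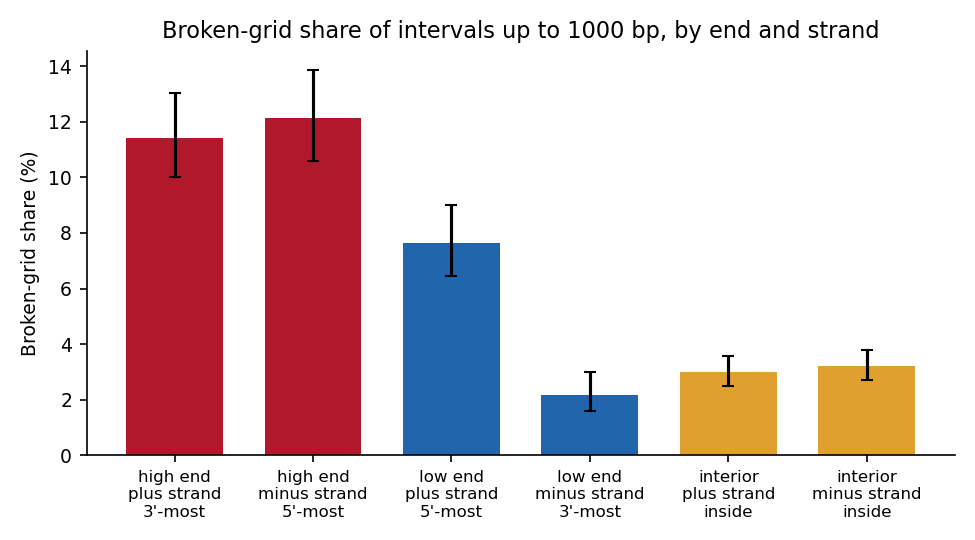
Broken-grid share (%, vertical axis) among all single-gene intervals up to 1000 bp in genes with 3 or more intervals, by place and strand (horizontal axis), with 95% Wilson bars. Both high-coordinate bars lie above 11%, and at the low-coordinate end the plus strand, where it is the 5'-most, stands at 7.62% and the minus strand, where it is the 3'-most, at 2.18%.

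Plus-strand genes held 979 of the 1739 short broken-grid intervals (56.3%, 95% Wilson interval 54.0 to 58.6), against 49.99% (49.3 to 50.7) of short whole-step intervals. The excess was largest at the low-coordinate end of genes with 2 or more intervals, with 232 on the plus strand and 89 on the minus strand. The high-coordinate end had 369 and 339, places between other intervals 119 and 124, and single-interval genes 259 and 208.

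The remainder of the width after division by 25 also differed with place. If remainders from 1 to 24 were equally frequent, 62.5% would be 10 or more. Among intervals between others this share was 62.6% (95% Wilson interval 56.3 to 68.4, n = 243), and in broken-grid intervals over 1000 and up to 10000 bp it was 62.7%. At the high-coordinate end of genes with 2 or more intervals it was 84.9% (82.1 to 87.3, n = 708), with a mean of 40.1 intervals for each remainder from 10 to 24 and 11.9 for each from 1 to 9. The change came sharply, at a remainder of 10: 36 of these intervals had a remainder of 10, and 18 had a remainder of 9. At this end the share was 92.1% on the plus strand (n = 369) and 77.0% on the minus strand (n = 339). Single-interval genes stood between, at 71.7% (67.5 to 75.6, n = 467), and the low-coordinate end was at 57.9% (52.5 to 63.2, n = 321). The share also fell with width over all places. It was 98.4% up to 100 bp, 92.7% over 100 and up to 200 bp, and 65.8% over 750 and up to 1000 bp. Intervals at the high-coordinate end were narrower than those between others, with median widths of 327.5 and 574 bp. How far the difference by place goes with width was not tested. The limit of 10 was placed after the counts were seen, and no test was made on it.

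**Figure D4:**
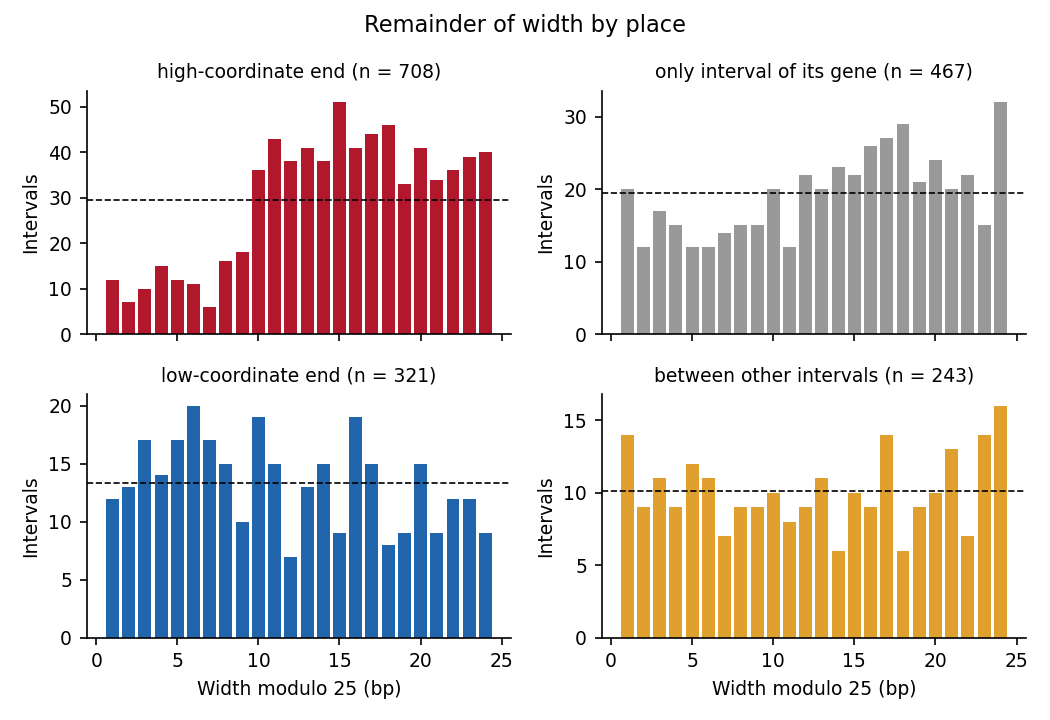
Number of short broken-grid intervals (vertical axis) with each remainder of width after division by 25, in bp (horizontal axis), in 4 panels by place; the dashed line is the mean per remainder. The panel for the high-coordinate end steps up between 9 (18 intervals) and 10 (36 intervals), whereas the panel for places between other intervals holds between 6 and 16 intervals at every remainder.

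The edges of the short broken-grid intervals mostly kept to the grid of a near interval on the same side. Of 247 with a neighbour of the same gene within 200 bp on the low-coordinate side, 245 (99.2%, 95% Wilson interval 97.1 to 99.8) started a whole multiple of 25 bp from that neighbour's end. None of the 247 ended on that neighbour's grid. Of 123 with a neighbour within 200 bp on the high-coordinate side, 120 (97.6%, 93.1 to 99.2) ended on its grid, and none started on it. An edge of unrelated phase would match in 4% of cases. Within 200 bp, short whole-step intervals matched in 99.6% on the low-coordinate and 99.7% on the high-coordinate side. Broken-grid intervals over 1000 and up to 10000 bp matched in 99.1% and 99.3%, and those over 10000 bp in 99.1% and 98.1%. A match at this distance was thus not particular to the short broken-grid intervals. If 1 edge of a broken-grid interval is on a grid, the other is off it by the rule, so in each pair only the matching edge carries information. With a neighbour within 200 bp on both sides there were 15, and in 14 of these each edge followed its own side. With neighbours up to 1000 bp away on both sides, both edges matched in 42 of 61 (68.9%).

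One of these 14 lay on chromosome 20 from 5047314 to 5047987, on the plus strand. It was 674 bp wide, with neighbours 25 bp away on both sides, and the phase moved by 24 bp across it. Another, on chromosome 13 from 101709652 to 101709828 on the minus strand, was 177 bp wide, with a neighbour 25 bp below it and another 200 bp above it. The exception of the 15 lay on chromosome 4 from 66910687 to 66910912, where the gap above was 151 bp. With neighbours up to 1000 bp away the matches were 400 of 450 (88.9%) on the low-coordinate side and 182 of 236 (77.1%) on the high-coordinate side. Whole-step intervals over the same distance matched in 96.9% on either side.

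Near neighbours were fewer than for whole-step intervals. Of the 951 short broken-grid intervals with any interval of their gene on the low-coordinate side, 26.0% (95% Wilson interval 23.3 to 28.9) had it within 200 bp, and of the 564 with one on the high-coordinate side, 21.8% (18.6 to 25.4) did. For short whole-step intervals the shares were 38.9% and 38.7%. Of the 708 at the high-coordinate end, which have no interval above them by definition, 181 had a neighbour within 200 bp below, and 179 of these (98.9%) started on its grid. None of the 181 ended on it.

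On the mitochondrial genome, 2 of 11 single-gene intervals were short and broken-grid. As background, mammalian mitochondrial genes contain no introns. These intervals ran from 4754 to 4942 (189 bp, remainder 14) and from 11420 to 11537 (118 bp, remainder 18), both in plus-strand genes. The first was the high-coordinate end of a gene with 3 intervals, and the second was the only interval of its gene. Both had remainders of 10 or more, as did 73.3% of all short broken-grid intervals. Why the widths of these 2 were broken-grid was not tested.

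Host genes mostly held few intervals. Of the 1739, 467 (26.9%, 95% Wilson interval 24.8 to 29.0) were the only interval of their gene, 486 (27.9%) lay in genes with 2 intervals and 786 (45.2%) in genes with 3 or more. Short whole-step intervals were the only one of their gene in 15.1% (14.6 to 15.6) and lay in genes with 3 or more in 63.7%. Counted by gene, the 1632 hosts had a median of 2 intervals of any kind, the highest being 19, and the 10049 hosts of short whole-step intervals also had a median of 2. By gene the order was the reverse of that by interval: 28.6% of the hosts of short broken-grid intervals held a single interval, against 32.0% of the hosts of short whole-step ones. In host genes with 2 or more intervals, the intervals spanned a median of 9268 bp, and the hosts of short whole-step intervals 10006 bp (95% intervals of the medians 8211 to 10363 and 9345 to 10672 bp).

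A single short broken-grid interval was listed for 1531 genes, 2 for 95 genes and 3 for 6 genes. In 62 of the 101 genes with 2 or more, such intervals followed each other directly along the gene, as 67 pairs with a median gap of 1660 bp. Every interval was short and broken-grid in 26 of the genes with 2 or more intervals, among them 4 genes with 3 intervals. In these 26 genes such intervals follow each other by construction. The number of pairs to be expected from the intervals per gene was not computed.

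Among the 6 genes with 3 such intervals, 2 had 5 intervals in all, the most in that group. The 5 intervals of ENSRNOG00000015300, a plus-strand gene of chromosome 10, covered a span of 4451 bp. Its 5'-most interval was a wide broken-grid one, from 13908391 to 13911091 (2701 bp). Only 25 bp further lay the first short one, from 13911117 to 13911396 (280 bp, remainder 5). The second followed after 452 bp, from 13911849 to 13912156 (308 bp, remainder 8). A whole-step interval of 75 bp, from 13912307 to 13912381, came 150 bp after that, on its grid. The third short broken-grid interval, from 13912457 to 13912841 (385 bp, remainder 10), closed the gene's list at its 3' end. In this gene 4 of 5 intervals had broken-grid widths, and the gap of 452 bp was not a whole multiple of 25 bp either.

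ENSRNOG00000020579, a plus-strand gene of chromosome 8, spread its 5 intervals over 18299 bp, and none had a whole-step width. The short ones were the first 3 from the 5' end. They ran from 109616485 to 109617455 (971 bp), from 109617679 to 109618277 (599 bp) and from 109620414 to 109620680 (267 bp). The other two, nearer the 3' end, were wider, at 1059 and 3907 bp. No gap between its intervals was a whole multiple of 25 bp. The file pairs neither gene ID with a symbol, so what these genes encode is not given.

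**Figure D5:**
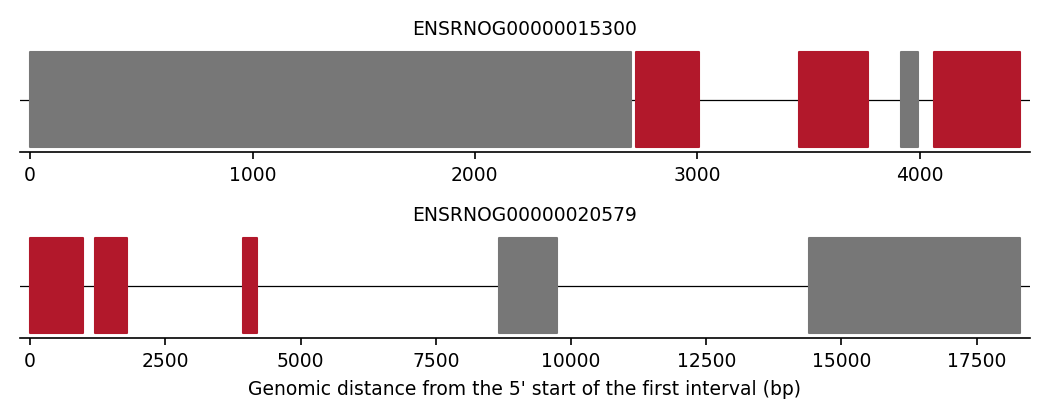
Intervals of the 2 genes with 3 short broken-grid intervals and 5 intervals in all, drawn to scale by genomic distance (bp, horizontal axis) from the 5' start of the first interval; red blocks are short broken-grid intervals and grey blocks the other intervals. In the upper gene red blocks reach the 3' end, and in the lower gene they are the first 3 blocks.

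Short broken-grid intervals were found on all autosomes and on X. They made up between 4.47% of the single-gene intervals of chromosome 14 (95% Wilson interval 3.26 to 6.11) and 9.46% of those of chromosome 20 (7.52 to 11.8). The mean over the 20 autosomes was 6.18% ± 1.34 (SD). Chromosome 20 was followed by chromosome 10 with 8.40% (7.29 to 9.66), and then by chromosomes 1 with 7.70% and 19 with 7.54%. The share on X was 7.76% (6.03 to 9.92), within the range of the autosomes. Neighbouring chromosomes in this order differed by less than their counting intervals. By number, chromosome 1 held the most, 262 in 234 genes, then chromosome 10 with 178 in 168 genes. The Y chromosome had none among 10 single-gene intervals, a count of 0 that allows a share of up to 30%. The high-coordinate end held more short broken-grid intervals than the low-coordinate end on 21 of 21 chromosomes, autosomes and X, in genes with 3 or more intervals. Its share there ran from 40.3% (25 of 62) on chromosome 5 to 65.2% (15 of 23) on chromosome 19. Counts per chromosome were small, down to 14 on chromosome 11, and differences between chromosomes were not tested.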

How the data were processed

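The submitters' processing notes name HISAT2, a read aligner, and Rnor_6.0 as genome build. How peaks were found, with which threshold and annotation, and whether libraries were merged first is not stated there. The authors' deposited list has 5 columns per the file headers: chromosome, start, end, Ensembl gene ID and gene strand. It names no build. Its positions were not checked against any sequence and may belong to a later rat assembly than the one named. Printed starts are those of the list plus 1.

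Intervals were ordered within each gene over all its listed intervals, shared ones included, and strand gave the 5' and 3' ends. Shares have 95% Wilson intervals, and medians have order-statistic ones. No hypothesis test was made: the list holds no values per sample, so the planned quasi-likelihood count test of case against control was not run. The function that orders intervals within genes and takes their gaps was tested on simulated data. Those that compute phase shares, Wilson intervals and medians were not. The genes printed are the 2 with the most short broken-grid intervals, ties going to more intervals in all; the same 2 had the highest share of them among genes with 5 or more intervals. The intervals printed by position are the 2 narrowest, the 2 widest, the next 2 past the limit and those on the mitochondrial genome; the 3 with neighbours on both sides were chosen after their values were seen. The gene lists drawn up for m6A and androgen genes could not be applied, since 0 entries of the RefSeq table used (assembly GRCr8) carry an Ensembl ID. The intervals, lists and measures were chosen with earlier results of these data known, and the high-coordinate end and the remainder of 10 were taken up after the data were seen. Python 3.11.15, numpy 2.4.6, pandas 2.3.3, scipy 1.17.1 and matplotlib 3.10.9 were used.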

Additional observations from a re-analysis of the deposited data

How the results depend on the processing

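No paired analysis was possible because the samples have no values of their own in the list; replicates could not be left out either. Of 68 values recomputed under 9 alternatives fixed earlier and 4 chosen after seeing the data, 37 stayed within the 95% interval of the reported value (for the number of intervals, within 1.5 times) and 31 did not. With a width limit of 500 bp there were 1020 intervals with a median of 268 bp, 61.8% at the high-coordinate end, 38.6% 3'-most, 92.3% of high-end remainders at 10 or more and 29.4% alone in their gene. With intervals of several genes included, those values were 41.1% at the high-coordinate end, 33.2% 5'-most, 81.2% of high-end remainders and 24.1% alone; starts matched the low-coordinate neighbour in 79.0% and ends the high-coordinate one in 70.6%. Genes with no shared interval gave 29.6% alone. With genes of 2 or more intervals, 55.7% lay at the high-coordinate end, 44.9% were 5'-most and 36.0% 3'-most. Genes spanning at most 10000 bp gave 54.9% at the high-coordinate end and 44.2% 5'-most. Neighbours up to 1000 bp away matched in 88.9% and 77.1%, and those within 100 bp matched in 100% on the high-coordinate side. Over 200 bp (chosen after seeing the data), the median was 505 bp, 40.2% lay at the high-coordinate end, 25.5% were 3'-most and 80.0% of high-end remainders were 10 or more. By strand (likewise), the plus strand gave 44.6% at the high-coordinate end, 28.5% 5'-most and 44.6% 3'-most, and the minus strand 53.5%, 53.5% and 10.5%. The cause of these shifts was not tested beyond what each alternative leaves out by construction. Of all short broken-grid intervals, 3.28% (95% Wilson interval 2.54 to 4.22) lay on X, and this stayed within its interval under the 6 alternatives run on it. Their share of the single-gene intervals of X was not recomputed. Depth is unknown, so what it limits was not assessed.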
